A study of Mus musculus with 11 samples.

Results

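The IL-33 receptor and the type 2 program that goes with it were followed through 6 genes, namely Il1rl1, Il1rap, Gata3, Rora, Areg and Il9r. They were chosen by name from the 52997 genes of the deposited count table, with earlier results of these data known, and no measured value entered the rule. All 6 passed the filter on low counts that left 12932 genes for testing. The libraries held clonotype+ Treg cells of the vTreg53 T cell receptor, which comes from 1 Treg clone of epididymal visceral adipose tissue (VAT). Every library had the genotype vTreg53 Tg+ on a C57BL/6 background and carried a label of 15 weeks of age. Donor Treg cells from the pooled spleen and lymph nodes (Spl/LN) of transgenic mice were moved into CD45.1 B6 recipients. After 6 weeks the recipients were primed under the skin with complete Freund's adjuvant, with or without Fat1562, an agonist surrogate peptide for this receptor. They were boosted in the peritoneum 1 week later with incomplete Freund's adjuvant, again with or without the peptide. From each recipient tissue, 1000 double-sorted CD45.2+ clonotype+ cells made a Smart-seq2 library. Each of the 4 groups is named by tissue and immunization. Spl/LN gave 3 libraries with adjuvant alone and 3 with adjuvant/Fat1562, and VAT gave 2 with adjuvant alone and 3 with adjuvant/Fat1562. The labels call the control mice unimmunized and name PBS, where the study's methods describe adjuvant alone. The methods call the libraries biological replicates, but whether a Spl/LN and a VAT library came from the same mouse was not given.

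IL-33 is an alarmin released by stromal cells, and it binds ST2, the product of Il1rl1, which then recruits the accessory chain encoded by Il1rap and signals through MyD88 and the IRAK kinases. Treg cells of VAT are known for high ST2, and GATA3 is a transcription factor that drives both type 2 helper genes and ST2 itself. RORα, the product of Rora, is a nuclear receptor required for type 2 innate lymphoid cells and used by tissue Treg cells, amphiregulin (Areg) is an EGF receptor ligand tied to tissue repair, and Il9r encodes the IL-9-specific chain of a receptor that shares the common gamma chain Il2rg with the IL-2 receptor.

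Total counts per library ran from 4490242 to 6570057. Levels below are normalized counts, that is, counts scaled by edgeR's TMM effective library sizes to the mean library. The Treg sort markers were present throughout: Foxp3, the lineage factor of Treg cells, ranged from 6758 to 10270 normalized counts over the 11 libraries. Several defining markers of other cells were at or near 0, and others were not. Mcpt8 of basophils was at 0 in every library and the mast cell proteases Mcpt4, Tpsb2 and Cma1 never passed 2.25, while the macrophage list of 10 genes summed to between 32.5 and 148, the stromal and adipocyte list of 9 genes to between 16.3 and 48.4, and the B cell list of 6 genes to between 70.9 and 226, most of it Cd79b at 47.3 to 204. Being bulk measurements of 1000 cells, these values cannot tell fewer expressing cells from less RNA per cell.

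Il1rl1 was highest in VAT Treg cells of mice given adjuvant alone, lower in VAT after Fat1562, and lowest in Spl/LN. In Spl/LN it stood at 784, 742 and 854 normalized counts with adjuvant alone and at 550, 681 and 491 with adjuvant/Fat1562. In VAT it stood at 6622 and 6454 with adjuvant alone and at 2771, 1614 and 1534 with adjuvant/Fat1562. The order of the 4 groups was the same for every library, since no library of 1 group overlapped another group, although the first VAT library after Fat1562 stood above the other two. The group means were 793 ± 56.9 (SD, n = 3), 574 ± 97.2 (n = 3), 6538 ± 118 (n = 2) and 1973 ± 693 (n = 3). The gene lies on the plus strand of chromosome 1 (GRCm38, 40429570 to 40465415), has 5 annotated transcripts, and gives rise to both the membrane receptor and a soluble decoy. Counts per gene do not separate these forms.

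Il1rl1 has a distal and a proximal promoter in RefSeq (GRCm38.p6). Both are shown because the transcripts of Gata3 and Il1rl1 moved together over these groups, and no protein was measured in these libraries. Each sequence is the 250 bases before the start on the plus strand, with matches to the GATA motif (AGATAA, where the first base may also be T and the last G, on both strands) in capitals. The distal one lies at chr1:40429320-40429569 and the proximal one at chr1:40439379-40439628.
Il1rl1 distal: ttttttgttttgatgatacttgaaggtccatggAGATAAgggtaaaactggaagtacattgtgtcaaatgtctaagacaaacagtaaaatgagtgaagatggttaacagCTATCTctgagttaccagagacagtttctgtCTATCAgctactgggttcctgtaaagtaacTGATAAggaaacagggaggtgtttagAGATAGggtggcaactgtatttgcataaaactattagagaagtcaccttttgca
Il1rl1 proximal: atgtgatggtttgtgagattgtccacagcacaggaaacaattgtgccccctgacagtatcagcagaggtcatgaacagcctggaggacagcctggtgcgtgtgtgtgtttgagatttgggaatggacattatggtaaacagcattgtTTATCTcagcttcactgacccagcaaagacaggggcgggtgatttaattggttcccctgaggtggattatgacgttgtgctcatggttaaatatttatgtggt
The distal promoter held 5 matches, at 217, 141, 110, 80 and 54 bases before the start, and the proximal one held 1. Of 32851 RefSeq promoter windows of this length, 26.5% held at least 1 match and 14, or 0.0426%, held 5 or more. Il9r had 2 matches and Rora 1, and these letters were not found in the windows of Gata3, Il1rap and Areg. A match is a description of the sequence and was not tested as a binding site.

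Il1rap, the partner chain that ST2 needs to signal, was low in all groups. It stood at 117, 59.5 and 113 normalized counts in Spl/LN with adjuvant alone and at 65.9, 87.8 and 103 after Fat1562. In VAT it stood at 91.3 and 109 with adjuvant alone and at 46.2, 66.3 and 66.7 after Fat1562. In VAT all 3 libraries after Fat1562 were below both with adjuvant alone, as for Il1rl1, whereas the VAT adjuvant-alone libraries lay within the range of Spl/LN. Groups next to each other in the order of their means overlapped. Per kilobase of exon, the level of Il1rl1 in VAT with adjuvant alone was 948 ± 17.2 (SD, n = 2) and that of Il1rap 8.80 ± 1.08 (n = 2), and in Spl/LN with adjuvant alone they were 115 ± 8.25 (n = 3) and 8.48 ± 2.81 (n = 3). The Il1rap annotation includes long transcripts, and with the longest single transcript as the length its level in Spl/LN with adjuvant alone was 21.3 per kilobase and that of Il1rl1 150. The gene lies on the plus strand of chromosome 16 (26581704 to 26730117). It shares 552 exon bases with the antisense gene Gm20319, whose reads cannot be told apart without strand.

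The transcription factors Gata3 and Rora were both higher in VAT than in Spl/LN, and both stood between the Spl/LN level and the VAT adjuvant-alone level after Fat1562. Gata3 stood at 2525, 2941 and 2837 normalized counts in Spl/LN with adjuvant alone, at 2648, 2351 and 2460 in Spl/LN after Fat1562, at 6315 and 6890 in VAT with adjuvant alone, and at 4707, 3275 and 3258 in VAT after Fat1562. The Spl/LN groups overlapped, and the VAT groups overlapped neither each other nor Spl/LN. As for Il1rl1, the first VAT library after Fat1562 was the highest of its group. Rora stood at 1312, 1066 and 1278 in Spl/LN with adjuvant alone, at 1322, 1422 and 1394 in Spl/LN after Fat1562, at 4467 and 4091 in VAT with adjuvant alone, and at 2552, 2490 and 1960 in VAT after Fat1562. No group of Rora overlapped another, though the Spl/LN groups nearly met. Gata3 lies on the minus strand of chromosome 2 (9857078 to 9890034) and Rora on the plus strand of chromosome 9 (68653786 to 69388246). Gata3 shares 155 exon bases with the antisense gene Gm13256 and 77 with 9230102O04Rik on the same strand. Rora shares 82 with the antisense gene Gm15511.

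Areg had the widest range of the 6 genes. In Spl/LN it stood at 110, 121 and 123 normalized counts with adjuvant alone and at 126, 130 and 164 after Fat1562. In VAT it stood at 8400 and 6292 with adjuvant alone and at 3671, 4009 and 2317 after Fat1562. All VAT libraries were above all Spl/LN libraries, and within VAT every library after Fat1562 was below both with adjuvant alone. Per kilobase of exon, Areg was the highest of the 6 genes in VAT with adjuvant alone, at 6046 ± 1227 (SD, n = 2), ahead of Gata3 at 1660 ± 102, Il1rl1 at 948, Rora at 327 ± 20.3, Il9r at 96.0 ± 10.3 and Il1rap at 8.80. In Spl/LN with adjuvant alone the Areg level was 97.1 ± 5.57 per kilobase (n = 3), below Gata3 at 696 ± 54.5 and near Il1rl1, Rora at 93.2 ± 10.2 and Il9r at 87.1 ± 9.998. The gene, on the plus strand of chromosome 5 (91139599 to 91148432), has 1 annotated transcript, and none of its 38-base windows occurred in another gene's exons.

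The Areg promoter is shown because, of the 6 genes, this one differed most between the tissues. It is the 250 bases before the start (RefSeq, GRCm38.p6, chr5:91139349-91139598, plus strand), with the cyclic AMP response element TGACGTCA in capitals.
Areg: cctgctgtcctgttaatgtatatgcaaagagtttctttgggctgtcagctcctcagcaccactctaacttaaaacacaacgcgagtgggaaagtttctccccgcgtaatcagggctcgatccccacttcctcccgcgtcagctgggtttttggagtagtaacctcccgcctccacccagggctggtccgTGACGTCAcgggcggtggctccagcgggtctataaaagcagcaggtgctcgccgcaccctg
The element, which reads the same on both strands, lay 61 bases before the start, and 1.55% of the 32851 windows held it. None of the other promoters of the 6 genes did. The AP-1 motif (TGAGTCA on both strands, held by 4.46% of windows) was in none of them, and the core of the ROR motif, AGGTCA on both strands (14.0% of windows), was in the proximal Il1rl1 window only.

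Il9r went its own way, since the tissues had like levels until Fat1562 was given. It stood at 396, 409 and 488 normalized counts in Spl/LN with adjuvant alone and at 401, 387 and 363 after Fat1562. In VAT it stood at 511 and 439 with adjuvant alone and at 196, 186 and 228 after Fat1562. The VAT libraries after Fat1562 were below all others, and the Spl/LN adjuvant-alone libraries overlapped both remaining groups, which did not overlap each other. Il9r lies on the minus strand of chromosome 11 (32187541 to 32200279).

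**Figure D1:**
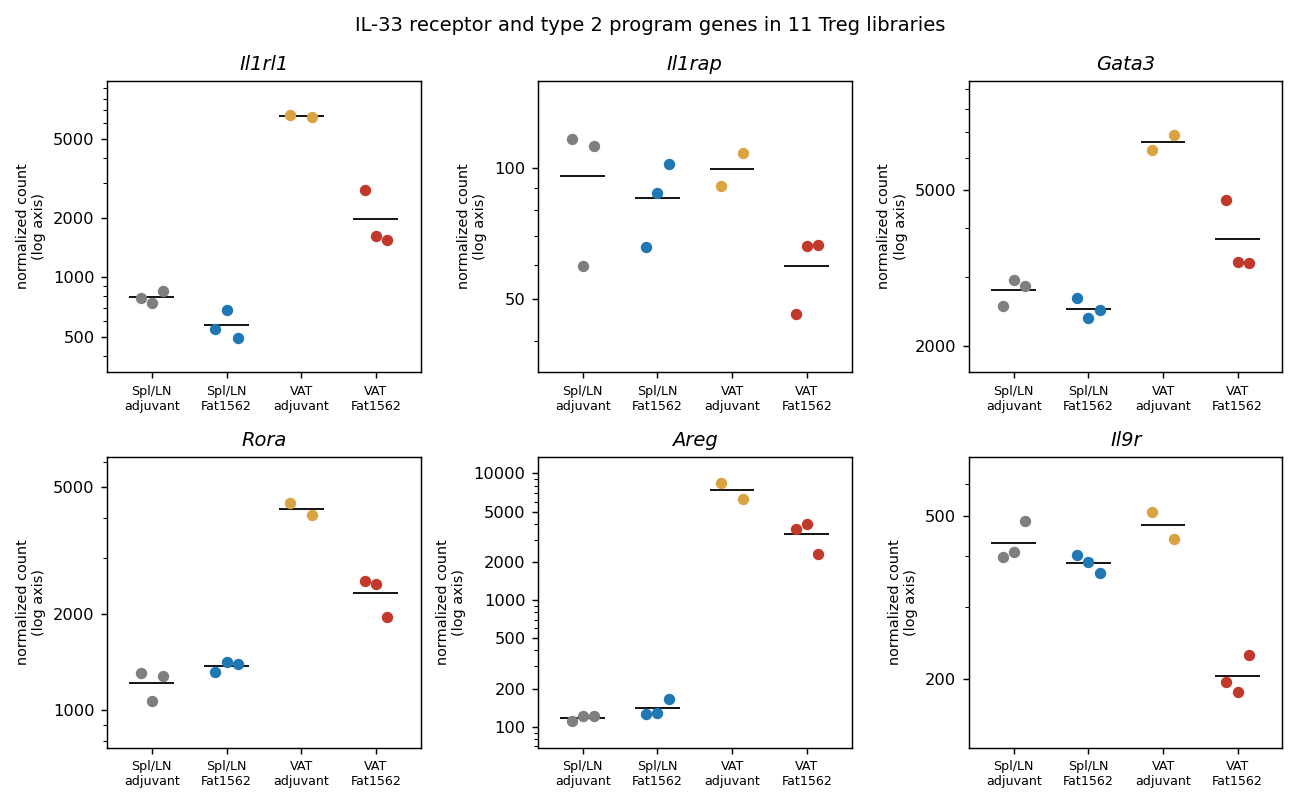
Normalized counts (log axis) of the 6 genes in each of the 11 libraries, 1 panel a gene, with the 4 groups on the horizontal axis, a point for each library and a line at the group mean. Il1rl1, Gata3, Rora and Areg were highest in VAT with adjuvant alone and lower in VAT after Fat1562, Il1rap had overlapping groups apart from the 2 of VAT, and Il9r was lowest in VAT after Fat1562 (186 to 228 normalized counts).

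The first comparison asked how VAT Treg cells of this clonotype differ from their Spl/LN counterparts when no peptide was given. The study's methods describe collagenase digestion of VAT and name no such step for Spl/LN. In either tissue comparison, tissue and digestion therefore cannot be told apart. Il1rl1, Gata3, Rora and Areg were higher in VAT, and Il1rap and Il9r did not pass the test. Areg was 62.2-fold higher (log2 difference 5.96 ± 0.21 SE, adjusted p = 2.71e-12), Il1rl1 8.24-fold (3.04 ± 0.19, adjusted p = 3.74e-09), Rora 3.51-fold (1.81 ± 0.12, adjusted p = 4.85e-09) and Gata3 2.39-fold (1.25 ± 0.13, adjusted p = 2.05e-06), each with 2 of 2 VAT libraries above 3 of 3 Spl/LN libraries. Genes with an adjusted p under 0.05 in edgeR's quasi-likelihood test count as called. By this rule 9.09% of the tested genes were higher in VAT and 7.17% were lower, against 4 of the 6 genes higher and 0 lower. The log2 difference of Il9r was 0.14, with a 95% interval from -0.18 to 0.46, and that of Il1rap 0.05, from -0.62 to 0.72. The sign for Il1rap turned to -0.20 without the second Spl/LN adjuvant-alone library and to -0.08 without the second VAT one.

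After Fat1562 the tissue difference was smaller for each of the 4 genes and had opened for Il9r. Areg was 23.7-fold higher in VAT (log2 difference 4.56 ± 0.19, adjusted p = 4.50e-11), Il1rl1 3.44-fold (1.78 ± 0.18, adjusted p = 1.52e-06), Rora 1.69-fold (0.76 ± 0.11, adjusted p = 7.76e-05) and Gata3 1.51-fold (0.59 ± 0.12, adjusted p = 0.00229). Il9r was 1.88-fold lower in VAT (-0.91 ± 0.14, adjusted p = 0.00017), in 3 of 3 libraries. Il1rap differed by -0.52, with an interval from -1.13 to 0.10 (adjusted p = 0.272). In this comparison 8.26% of the tested genes were called higher in VAT and 6.73% lower, against 4 and 1 of the 6 genes. The 2 tissue comparisons use different libraries, and whether they differ is the interaction given below.

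The comparison of Fat1562 with adjuvant alone within VAT asked how the tissue Treg cells differed between the immunizations. The paper reports that Fat1562 expanded clonotype+ Treg cells in both tissues, more so in VAT. A change within cells and a change in which cells were present cannot be told apart here. All 6 genes had negative log2 differences and 5 passed the test. Il1rl1 fell 3.32-fold (-1.73 ± 0.19, adjusted p = 1.16e-05), Il9r 2.33-fold (-1.22 ± 0.15, adjusted p = 5.59e-05), Areg 2.21-fold (-1.14 ± 0.17, adjusted p = 0.000382), Rora 1.83-fold (-0.87 ± 0.12, adjusted p = 0.000104) and Gata3 1.76-fold (-0.82 ± 0.13, adjusted p = 0.000586). In each case 3 of 3 libraries after Fat1562 were below 2 of 2 with adjuvant alone. The log2 difference of Il1rap was -0.74 (interval -1.42 to -0.06, adjusted p = 0.191). Of the tested genes 3.97% were called lower and 4.32% higher, and the median log2 difference over all tested genes was 0.01, against -1.01 over the 6. The 5 calls stood without any 1 of the 5 libraries, although the adjuvant-alone side rests on 2 libraries.

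In Spl/LN the same comparison gave no call among the 6 genes in edgeR's quasi-likelihood test or in DESeq2, with 1 gene, Il1rl1, at an unadjusted p under 0.05. Its log2 difference was -0.47 (interval -0.84 to -0.10, unadjusted p = 0.0169 in edgeR's test, adjusted p = 0.159), and 3 of 3 libraries after Fat1562 were below 3 of 3 with adjuvant alone. Without the filter on low counts this difference, at -0.47, was called with an adjusted p of 0.000907, and over the other alternatives its adjusted p ran from 0.0696 to 0.388. The intervals of the remaining genes ran from -0.40 to 0.10 for Gata3, from -0.05 to 0.40 for Rora, from -0.17 to 0.68 for Areg, from -0.45 to 0.11 for Il9r and from -0.77 to 0.42 for Il1rap. Here 2.58% of the tested genes were called higher and 1.40% lower.

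The difference between the VAT and the Spl/LN effect of Fat1562 was tested directly as an interaction. It was negative for all 6 genes and passed the test for 5, where 2.02% of the tested genes were called negative and 1.70% positive. The log2 effect in VAT minus that in Spl/LN was -1.40 ± 0.27 for Areg (adjusted p = 0.00662), -1.26 ± 0.26 for Il1rl1 (adjusted p = 0.00986), -1.05 ± 0.20 for Il9r (adjusted p = 0.00697), -1.05 ± 0.16 for Rora (adjusted p = 0.00102) and -0.66 ± 0.18 for Gata3 (adjusted p = 0.0459). The Spl/LN estimates of Areg and Rora were positive, at 0.25 and 0.18, and not called. Il1rap had -0.56, with an interval from -1.47 to 0.34. The Gata3 call was lost in 10 of 18 alternatives, with adjusted p up to 0.171 when the second VAT adjuvant-alone library was left out. The Il9r call was lost in 1, without the first VAT adjuvant-alone library (adjusted p = 0.0551).

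**Figure D2:**
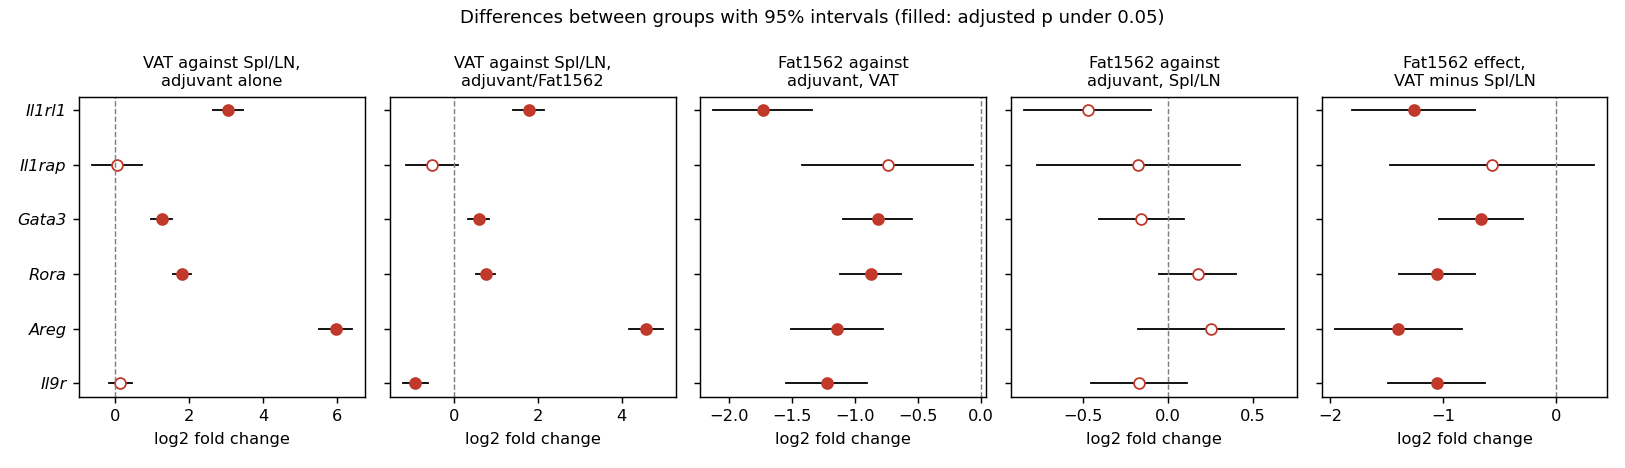
Log2 differences of the 6 genes in the 5 comparisons, with 95% intervals from edgeR as lines, filled points for an adjusted p under 0.05 and open points otherwise. Each panel has its own horizontal scale. In VAT all 6 estimates for Fat1562 lay below 0, from -1.73 for Il1rl1 to -0.74 for Il1rap, and in Spl/LN none was called.

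Of the 10 listed genes of the IL-1 receptor family 8 were tested. In VAT, 3 were called higher after Fat1562 (4.32% of all tested genes were) and only Il1rl1 was called lower (3.97%). Il1r2, the decoy receptor for IL-1, stood at 725 and 605 normalized counts in VAT with adjuvant alone and at 3341, 3334 and 3090 after Fat1562, and at 421, 395 and 262 and at 343, 278 and 505 in the 2 Spl/LN groups. Only the VAT libraries after Fat1562 stood apart by that much, with a log2 difference from VAT adjuvant alone of 2.29 (adjusted p = 2.80e-06) and an interaction of 2.22 (adjusted p = 0.000239). Il18r1, the ligand-binding chain of the IL-18 receptor, ran the reverse of Il1rl1: 338, 310 and 315 in Spl/LN with adjuvant alone, 308, 329 and 331 in Spl/LN after Fat1562, 126 and 66.2 in VAT with adjuvant alone and 250, 244 and 283 in VAT after Fat1562. Its log2 difference was -1.73 between VAT and Spl/LN with adjuvant alone (adjusted p = 2.10e-05) and 1.42 for Fat1562 in VAT (adjusted p = 0.000465). The accessory chain Il18rap, by contrast, was higher in VAT with adjuvant alone (2.01, adjusted p = 1.72e-06) and after Fat1562 (0.98, adjusted p = 0.00135).

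Il1r1, the signaling receptor for IL-1, was low everywhere, at 0.966, 1.04 and 0 normalized counts in Spl/LN with adjuvant alone and at 24.8, 11.8 and 19.3 there after Fat1562. It stood at 6.52 and 2.5 in VAT with adjuvant alone and at 40.5, 14.3 and 35.6 after Fat1562. The libraries after Fat1562 were above those with adjuvant alone in both tissues, with adjusted p = 0.00597 in Spl/LN and 0.0474 in VAT in edgeR's test. The VAT call was lost in 6 of 12 alternatives. Il1r1 passed the filter only through the groups after Fat1562, where it is high, and it is among the genes counted above as called higher in VAT. The inhibitory receptor Sigirr differed little, with log2 differences between -0.04 and 0.18 in the 4 pairwise comparisons, none called. Il1rapl1 and Il1rapl2 stayed below the filter.

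**Figure D3:**
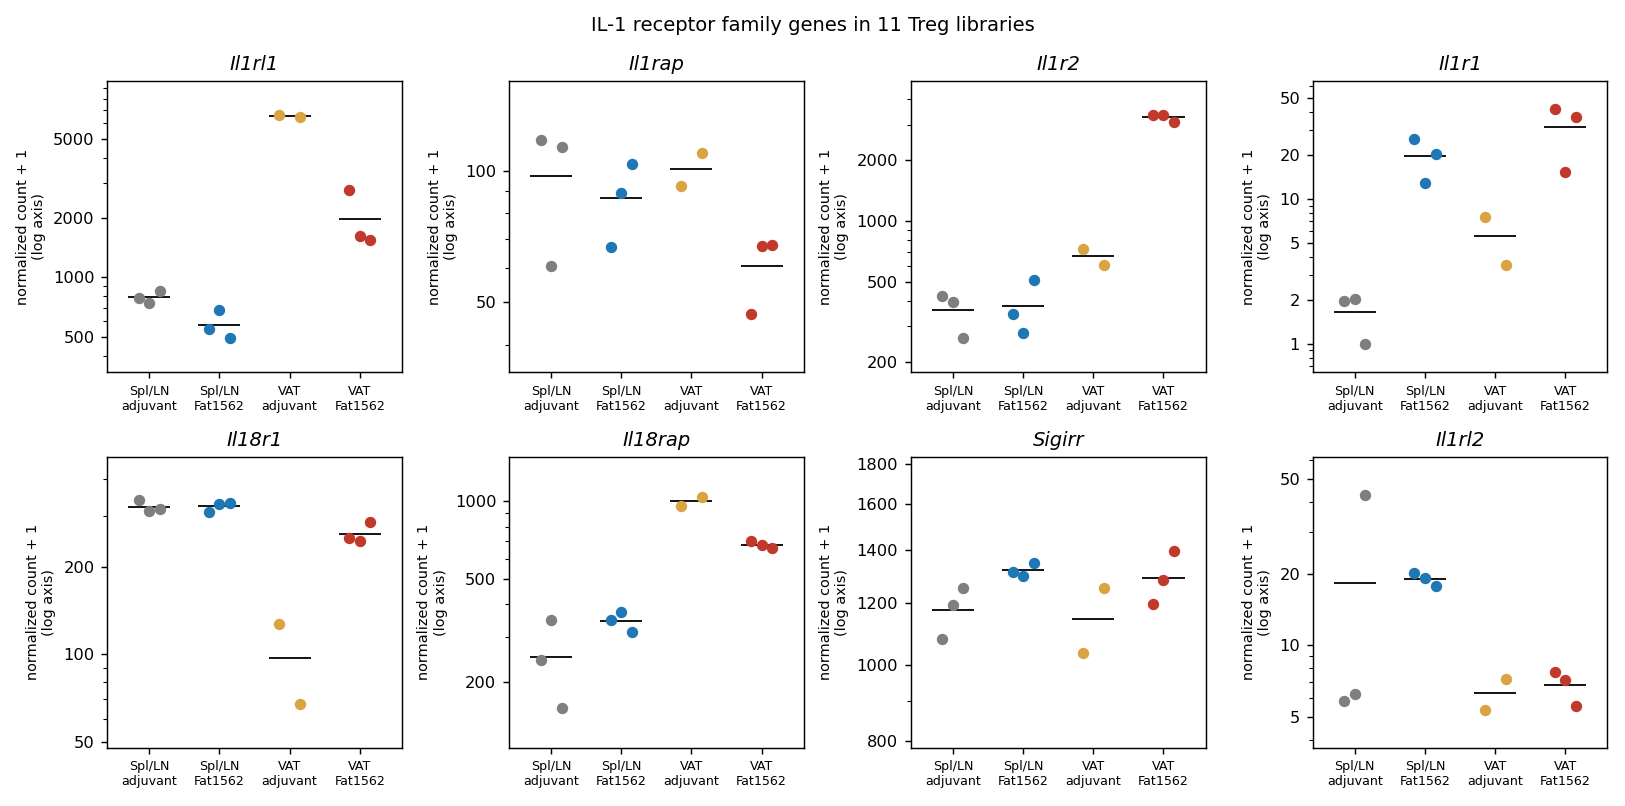
Normalized counts plus 1 (log axis) of 8 IL-1 receptor family genes in each library, with the 4 groups on the horizontal axis and a line at the group mean. Il1r2 stood at 3090 to 3341 in VAT after Fat1562 and at no more than 725 elsewhere, while Il1rl1 fell in the same libraries.

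Downstream of the receptor, the 14 listed adaptors and kinases were all tested. Between VAT and Spl/LN with adjuvant alone, 3 were called higher and 0 lower, against 9.09% and 7.17% of all tested genes. Irak2, a kinase of the receptor complex, was higher in VAT by 1.39 on the log2 scale (adjusted p = 6.56e-06) and by 0.85 after Fat1562 (adjusted p = 0.000457). Irak3, which restrains this pathway, was higher in VAT by 1.42 (adjusted p = 0.00231) and lower after Fat1562 in VAT by -1.35 (adjusted p = 0.00718), at 250 and 224 normalized counts with adjuvant alone against 92.3, 67.3 and 119. This last call was lost without the first VAT adjuvant-alone library (adjusted p = 0.0728). The third was Tab2 (0.47, adjusted p = 0.0279), lost in 7 of 13 alternatives. Myd88 was between 481 and 770 normalized counts in all libraries and was called in none of the comparisons. The median log2 difference of the list was 0.02 between the tissues with adjuvant alone and -0.20 for Fat1562 in VAT.

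Of the 10 listed type 2 cytokines and alarmins only Il10 and Il5 were tested. Il10, an anti-inflammatory cytokine made by tissue Treg cells, stood at 17.4, 13.6 and 8.23 normalized counts in Spl/LN with adjuvant alone and at 27.7, 36.4 and 40.1 after Fat1562. It stood at 1237 and 1049 in VAT with adjuvant alone and at 907, 341 and 527 after Fat1562. It was thus higher in VAT in both settings (6.45, adjusted p = 1.00e-09, and 4.08, adjusted p = 6.02e-08). Its difference for Fat1562 in VAT was -0.95 (adjusted p = 0.0354) and was lost in 6 of 13 alternatives, and its interaction was -2.37 (adjusted p = 0.0141), lost without the first VAT adjuvant-alone library (adjusted p = 0.0507). Il5, which acts on eosinophils, was at 0 in all 6 Spl/LN libraries and at 49.99 and 22.5 in VAT with adjuvant alone, and at 4.5, 0 and 3.65 after Fat1562. It passed the filter only through VAT with adjuvant alone, where it is high. Il4 and Il13, the leading type 2 helper cytokines, never passed 6.69 and 2.17, and Il9 and Il3 were at 0 throughout, so the ligand of Il9r was not detected in these cells.

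A list of 11 genes held receptors for alarmins and type 2 cytokines together with Icos, Ptgdr2 and Stat6, and 8 of the 11 were tested. Il4ra, the shared chain of the IL-4 and IL-13 receptors, was higher in VAT with adjuvant alone (0.73, adjusted p = 0.000287), at 2611 and 2626 normalized counts against 1518 to 1660. After Fat1562 in VAT it stood at 2382, 1759 and 1812 (-0.40, adjusted p = 0.0448, lost in 7 of 13 alternatives). Icos went the other way in both comparisons. It was lower in VAT with adjuvant alone (-0.31, adjusted p = 0.044 in edgeR's test, lost in 6 of 13 alternatives). In VAT it was higher after Fat1562 (0.34, adjusted p = 0.049, lost in 7 of 13). Il17rb, the IL-25 receptor, fell after Fat1562 in both tissues, by -1.72 in Spl/LN (adjusted p = 5.07e-05) and by -0.87 in VAT (adjusted p = 0.0149). The VAT call was lost without the second library of either VAT group. Crlf2, the TSLP receptor chain, was 0.53 and 0.54 higher (adjusted p = 0.0281 and 0.03), and these calls were lost in 5 of 14 and 6 of 13 alternatives. Csf2rb, the beta chain that the IL-5 receptor shares, was higher in VAT in both settings (4.38, adjusted p = 3.94e-05, and 3.21, adjusted p = 0.000101).

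Of 11 tested transcription factors of the type 2 and tissue programs, other than Gata3 and Rora, 6 were called higher in VAT and 1 lower with adjuvant alone, against 9.09% and 7.17% of all tested genes. The calls of Maf and Gfi1 among the 6 were lost in 7 of 13 and 6 of 13 alternatives. Junb, an AP-1 subunit, was ordered like Il1rl1: 3433 to 3606 normalized counts in Spl/LN with adjuvant alone, 2521 to 2661 after Fat1562, 42520 and 38050 in VAT with adjuvant alone and 18640, 18610 and 16320 in VAT after Fat1562. It was higher in VAT by 3.52 (adjusted p = 7.88e-15), fell with Fat1562 in VAT by 1.17 (adjusted p = 4.83e-08) and in Spl/LN by 0.43 (adjusted p = 0.00128), with an interaction of -0.74 (adjusted p = 0.000524) that was lost under quantile normalization. Id2, which restrains E proteins, and Bhlhe40 were higher in VAT (2.73, adjusted p = 6.41e-09, and 2.66, adjusted p = 1.90e-06) but were not called for Fat1562. Nfil3 and Batf went against Gata3 and Rora: in VAT Nfil3 rose by 1.21 (adjusted p = 8.88e-05) and Batf by 0.82 (adjusted p = 0.000166). Of the other GATA genes only Gata1 passed the filter, with no call and at most 63.6 normalized counts.

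For amphiregulin, the other 10 listed EGF family ligands had levels far below that of Areg in VAT. Of the 11 listed, 5 were tested, and beside Areg only Hbegf, another EGF receptor ligand, was called, higher in VAT by 1.63 with adjuvant alone (adjusted p = 0.0284) and by 1.44 after Fat1562 (adjusted p = 0.0178), at no more than 104 normalized counts in any library, and these calls were lost in 6 of 13 and 4 of 14 alternatives. Ereg was at 0 throughout. Adam17, the protease that sheds amphiregulin from the cell surface, rose after Fat1562 in VAT by 0.67 (adjusted p = 0.00123), at 791, 905 and 855 against 515 and 554 normalized counts, so that the ligand's transcript and that of its sheddase moved apart. Egfr itself never passed 3.65.

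For the IL-9 receptor, all 8 genes of the complex and its signaling were tested. Il2rg, the common gamma chain, was higher in VAT with adjuvant alone (0.49, adjusted p = 0.000365, lost under quantile normalization), lower after Fat1562 in VAT (-0.35, adjusted p = 0.0114, lost without the first VAT adjuvant-alone library) and higher after Fat1562 in Spl/LN (0.33, adjusted p = 0.0147, lost in 4 of 14 alternatives). Its interaction was -0.68 (adjusted p = 0.0016). Stat3 was higher in VAT in both settings (0.54, adjusted p = 0.00426, lost without the first VAT adjuvant-alone library, and 0.73, adjusted p = 0.000124). The kinases Jak1 and Jak3 were not called in any comparison, with log2 differences between -0.07 and 0.25.

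**Figure D4:**
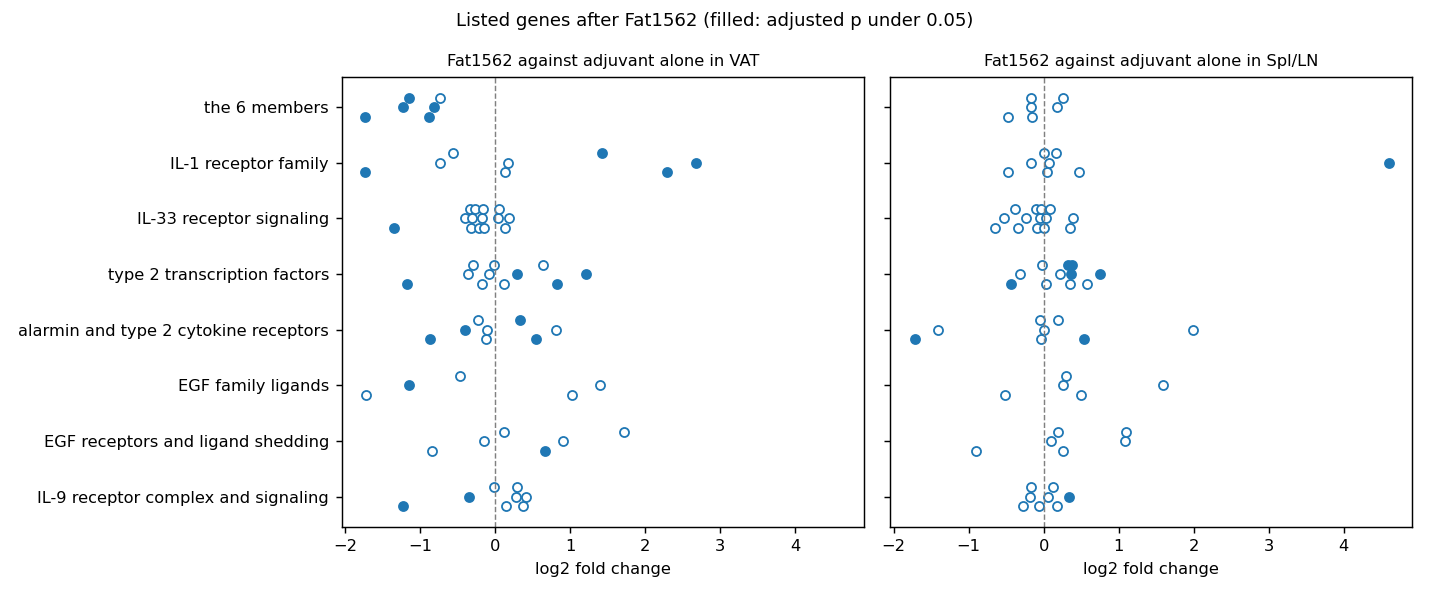
Log2 differences for Fat1562 against adjuvant alone in VAT (left) and Spl/LN (right) for the tested genes of 8 lists, a point a gene, filled where the adjusted p was under 0.05. In VAT all 6 genes described here lay below 0 (5 filled), and each of the other 7 lists plotted had tested genes on both sides of 0. The list of type 2 cytokines and alarmins, with both tested genes below 0 in VAT, was not plotted.

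Markers of other ST2-bearing cells were read beside these values. The 9 mast cell and basophil markers summed to between 6.40 and 54.1 normalized counts in Spl/LN, to 128 and 229 in VAT with adjuvant alone and to between 18.4 and 49.5 in VAT after Fat1562. Most of the VAT adjuvant-alone sum was Kit, the stem cell factor receptor, at 88.0 and 202, and Hdc at 33.7 and 18.7, with Cpa3 at 5.43 and 7.50 and Mcpt8, Mcpt4, Tpsb2, Ms4a2 and Cma1 at 0. The 6 markers of type 2 innate lymphoid cells summed to 965 and 2090 in VAT with adjuvant alone and to between 330 and 1309 after Fat1562. Most of this was Cxcl2, at 1957 and 887, and 1248, 331 and 283. Calca stood at 70.6 and 16.2, and 49.5, 27.5 and 32.9, against at most 3.212 in Spl/LN. Calca was called higher in VAT in both settings, but it passed the filter only through the VAT groups, where it is high. Il5 stood at 49.99 and 22.5, and 4.5, 0 and 3.65. Hs3st1 stood at 4.35 and 36.2 with adjuvant alone and at 0 after Fat1562. Arg1 and Il13 reached at most 9.635 and 2.17. Both sums moved in the direction of Il1rl1, Gata3 and Areg, although the VAT groups overlapped in the sum of the 6 markers. The part of these sums in the results was not tested. Of the 6 CD8 T and NK cell markers, Nkg7 rose after Fat1562 in VAT (2.82, adjusted p = 7.94e-05) and in Spl/LN (2.11, adjusted p = 0.000819). Klrb1c was called higher after Fat1562 in Spl/LN (3.43, adjusted p = 0.0462, lost in 5 of 13 alternatives). It passed the filter only through Spl/LN after Fat1562, where it is high. Cd8b1 stood at 66.4 to 194 in all libraries, while Cd8a and Ncr1 never passed 6.40.

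Among 8967 genes with a mean of at least 50 normalized counts, those most like each of the 6 across the 11 libraries were found by Pearson's r of log2(normalized count + 1). The 11 points share 4 groups, so these values are a description. Gata3 was most like Il4ra (r = 0.981), Il1rl1 (0.975) and Cd200r1 (0.963), and Il1rl1 was most like Ctla2a (0.985), Kdm6b (0.983) and Zfp36 (0.979). Rora was most like Zfp36 (0.987), Zc3hav1 (0.983) and Glul (0.981), and Areg most like Dgat1 (0.995) and Tnfaip3 (0.994). Il9r was most like Orc5 (0.953), Fbxl2 (0.950) and Cd55 (0.948). Il1rap was most like Commd5 (0.907), Mia3 (0.875) and Xrcc4 (0.875). Among the 6 genes themselves, Il1rl1, Gata3, Rora and Areg had r from 0.861 to 0.975 with each other, and Il1rl1 had -0.05 with Il9r and -0.03 with Il1rap.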

How the data were processed

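The counts are raw whole numbers that the authors deposited in 1 table, for 52997 gene symbols and 11 Smart-seq2 libraries (paired 38-base reads). The submitters' processing notes name STAR 2.5.4, featureCounts and the build mm10, while the paper's methods name Cuffquant for quantification. The deposited values are whole numbers and were treated as read counts, though the sources do not settle which tool made them. The annotation and strand setting were not given in the sources used here. Groups and replicate numbers came from the sample labels, and 0 columns were left unmatched. Library totals lay between 4490242 and 6570057. Molecular identifiers are not mentioned. The standard errors hold the scatter of libraries and counts, and loss before amplification enters them only as far as it differed between libraries.

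After libraries were scaled to their mean total, the 12932 genes whose average passed 10 in 1 group or more were tested. All 4 groups were fitted together with edgeR 4.0.16 (TMM, quasi-likelihood test, prior count 0.125, two-sided) in R 4.3.3, with Benjamini-Hochberg adjustment over all tested genes and calls at an adjusted p under 0.05. The script was tested on simulated counts. Alternatives were no filter, a mean above 50, a coefficient of variation under 0.7 within groups, median-of-ratios size factors, DESeq2 1.42.0, limma 3.58.1 after quantile normalization, only the groups compared, a replicate block and each library left out. Positions and exon lengths are from GENCODE vM21 (GRCm38, the same assembly as mm10), and promoters from RefSeq (GRCm38.p6), where all 6 genes matched. The genes named are the 6, the genes of fixed lists, Foxp3, and the 3 genes most like each of the 6, of which some results are not reported here. The 6 genes and the lists were chosen with earlier results of these data known.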

Additional observations from a re-analysis of the deposited data

Results flagged for a closer look

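The effect of Fat1562 in VAT and in Spl/LN was called different for 5 of the 6 genes by edgeR's interaction test. Of all tested genes, 2.02% were called negative and 1.70% positive. The values here are the log2 effect in VAT minus that in Spl/LN. They were -1.26 for Il1rl1, -0.66 for Gata3, -1.05 for Rora, -1.40 for Areg and -1.05 for Il9r. The Gata3 call was lost in 10 of 18 alternatives, the replicate block among them, and the Il9r call in 1. In the IL-1 receptor family the same test gave 2.22 for Il1r2, 1.41 for Il18r1 and -1.02 for Il18rap (the last lost in 9 of 18 alternatives). It gave -2.37 for Il10, -0.74 for Junb and -0.68 for Il2rg, and the first of these was lost without the first VAT adjuvant-alone library and the second under quantile normalization. No group of these libraries held 4 or more samples, so single libraries were not examined for standing apart.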

How the results depend on the processing

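Over 432 recomputed log2 differences of the 6 genes, 418 kept their direction and side of the threshold, 11 lost the call, 1 gained it and 2 reversed. The reversals were Il1rap between VAT and Spl/LN with adjuvant alone, -0.1951 without the second Spl/LN library and -0.0844 without the second VAT library, against 0.05 with all libraries and up to 0.2153 without the first Spl/LN one. The number of the 6 genes called in Spl/LN for Fat1562 went from 0 to 1 with no filter. With 1 library left out it stayed at 4, 5, 5 and 0 in the 4 pairwise comparisons and ran from 3 to 5 in the interaction, lowest without the first VAT adjuvant-alone library. Over all genes, leaving out 1 library gave 1259 to 2114 calls between tissues with adjuvant alone (2102 with all libraries), 1289 to 1704 after Fat1562 (1938), 508 to 827 for Fat1562 in VAT (1073), 190 to 487 in Spl/LN (515) and 240 to 575 in the interaction (481). In Spl/LN, 793 genes were called with no filter and also 793 by DESeq2, and DESeq2 called 789 in the interaction. The cause was not tested. Of the 102 calls among the other listed genes, 57 held under every alternative and none reversed. Whether libraries with the same number share a mouse was not given. Their deviations from the group mean correlated at -0.07 to 0.078 over 15 pairs. For the 5 of these that set a Spl/LN against a VAT library of the same immunization, r was 0.023 to 0.078. Such tissue pairs with unlike numbers had r from -0.103 to 0.051. Deviations within groups this small depend on each other, so these values do not settle whether mice were shared. The numbers were not treated as pairs in the main fit. With a replicate block the Gata3 interaction was -0.64 (adjusted p = 0.0675 in edgeR) and 4 of the 6 genes were called in the interaction, with 435 genes in all. The block changed no other call among the 6 genes. It gave libraries of the same number a common term across tissues and immunizations. It therefore did not model a mouse shared between tissues within an immunization. With the longest transcript as the length, levels per kilobase rose for all of the 6 genes but Areg.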
